A study of Oryza sativa with 9 samples.

Results

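DREB1 factors, which are also called CBF factors, and DREB2 factors are transcription factors of the AP2/ERF family. They bind the dehydration-responsive element in the promoters of genes that protect plant cells during cold, drought and salt stress. In Arabidopsis and rice, DREB1 genes are mostly known for a fast transcriptional response to cold, while DREB2 genes are known for their response to dehydration, salt and heat. The leaf expression of both subfamilies was examined here in unstressed rice. The set held every probe set that the array annotation assigns to a DREB1 or DREB2 gene alone. It also held 1 probe set that the study assigns to OsDREB1C. These were 12 of 57194 probe sets tested, 8 of DREB1 and 4 of DREB2. A probe set is a group of short array probes whose signals are summarised as 1 value.

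The probe sets were assigned to 8 genes. For DREB1 these were CBF3 (synonym DREB1A, LOC4347620, chromosome 9), DREB1B (LOC4347618, chromosome 9), CBF1 (LOC4339974, chromosome 6), DREB1E (LOC4336721, chromosome 4) and DREB1G (LOC4330306, chromosome 2). For DREB2 they were DREB2A (LOC4324418, chromosome 1), DREB2B (LOC4338484, chromosome 5) and DREB2D (LOC4339084, chromosome 5). CBF1 has 3 probe sets and DREB2D has 2. The gene table lists 13 DREB1 and DREB2 genes, and the other 5 (DREB1F, DREB1H, DREB1I, DREB1J and DREB2C) have no probe set of their own in the annotation and were not analysed here. The probe set of the study's OsDREB1C has no gene in the annotation. The gene table gives the name DREB1C as a synonym of CBF1, so both are followed below under separate names. The study places its OsDREB1C at a locus whose name points to chromosome 6, where CBF1 lies. The 2 names may stand for 1 gene, which was not tested. The study chose OsDREB1G and OsDREB1C on these same samples. Their differences, and the counts and medians below that include them, are thus not independent evidence.

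Leaves of 21-day-old seedlings of Oryza sativa were profiled on 9 Affymetrix GeneChip arrays, 3 for each of 3 groups, and all plants came from liquid culture and received no stress treatment. Wild-type plants (WT) were of the japonica cultivar Zhonghua11, into which both constructs were introduced. In the overexpression plants (OE) the full-length cDNA of OsHMGB707 was placed behind a cauliflower mosaic virus promoter, which is active in most tissues, and in the RNA interference plants (RNAi) a repeated segment of the gene was placed behind a ubiquitin promoter in a different vector. The product of OsHMGB707 is a chromatin protein with a high mobility group box, which bends DNA. Each replicate was a pool of seedlings, the transformed line behind the arrays is not named, and no plants with an empty vector were measured. Effects of transformation, vector or selection cannot be told apart from those of OsHMGB707.

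The first of 2 OsHMGB707 probe sets read 12.39, 12.38 and 12.38 on the WT arrays and 10.31, 10.43 and 10.03 on the RNAi arrays, in log2 units as all values below. It fell 4.38-fold in RNAi (adjusted p = 3.85e-06). The other read 6.33 to 6.93 in WT and 5.92 to 6.37 in RNAi, which overlap (difference -0.44, adjusted p = 0.286), and differed by -0.27 in OE (adjusted p = 0.419). On the first probe set the values labelled OE were 12.25, 12.28 and 12.37, which is not above WT (difference -0.09, 95% interval -0.30 to 0.13), so directions given for OE are those of the arrays that carry this label. Whether this probe set reads the transcript of the OE construct, or is near saturation, was not tested. Correlations between arrays were 0.992 to 0.998 within groups and 0.988 to 0.995 between groups. Of 11 probe sets of leaf photosynthesis genes, 9 lay above the upper quartile of all 9 arrays, and 0 were called by limma in any comparison, with 1 at an unadjusted p under 0.05 in RNAi against WT. Of 27 probe sets of root, meristem, flower and seed genes, 17 lay below the median of all 9 arrays. Their mean was 5.27 to 5.35 in WT, 5.29 to 5.39 in OE and 5.24 to 5.34 in RNAi. In OE against WT 1 of the 27 was called higher and 1 lower, beside 2.94% of all probe sets called. In RNAi against WT 0 were called (0.479% of all), with 2 at an unadjusted p under 0.05. Between the lines 2 were called higher and 1 lower (6.16% of all). Their part in the results below was not tested.

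Of the 8 DREB1 probe sets, 7 were called between OE and RNAi, beside 6.16% of all probe sets. The 4 DREB2 probe sets were not called in any comparison. For 4 probe sets this is near the share of all probe sets called, 0.479% to 6.16%. Of these 4, the 2 of DREB2D lay below the lower quartile of all 9 arrays. DREB1G, the study's OsDREB1C, CBF3, DREB1B and DREB1E were higher in OE than in RNAi, by 0.44 to 2.47 on the log2 scale. Of the 3 CBF1 probe sets, 2 went the other way and were highest in RNAi, and the third differed by at most 0.05. Of these 2, S1_at lay below the lower quartile of all 9 arrays, and its call stood in 2 of 9 analyses without a single array. Whether the probe set of the study's OsDREB1C reads the same gene was not tested. DREB2A, DREB2B and DREB2D differed by at most 0.18 in any comparison. A difference was called at an adjusted p under 0.05 in limma, with adjustment over all probe sets tested. Between OE and RNAi 7 of 12 members were called, beside 6.16% of all probe sets. Of these 5 were higher in OE, beside 3.14% of all probe sets, and 2 were lower, beside 3.02%. In OE against WT 3 of 12 were called, beside 2.94% of all probe sets. All 3 were higher (1.25% of all probe sets) and 0 were lower (1.69%). In RNAi against WT 2 of 12 were called, beside 0.479%, with 1 higher (0.261%) and 1 lower (0.219%). The comparisons share arrays, so these counts do not add to each other. They include DREB1G and the study's OsDREB1C, which the study chose on these same samples. Both were called in OE against WT and between the lines. Without moderation of the variance 0 members were called in either comparison with WT and 4 between the lines.

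**Figure D1:**
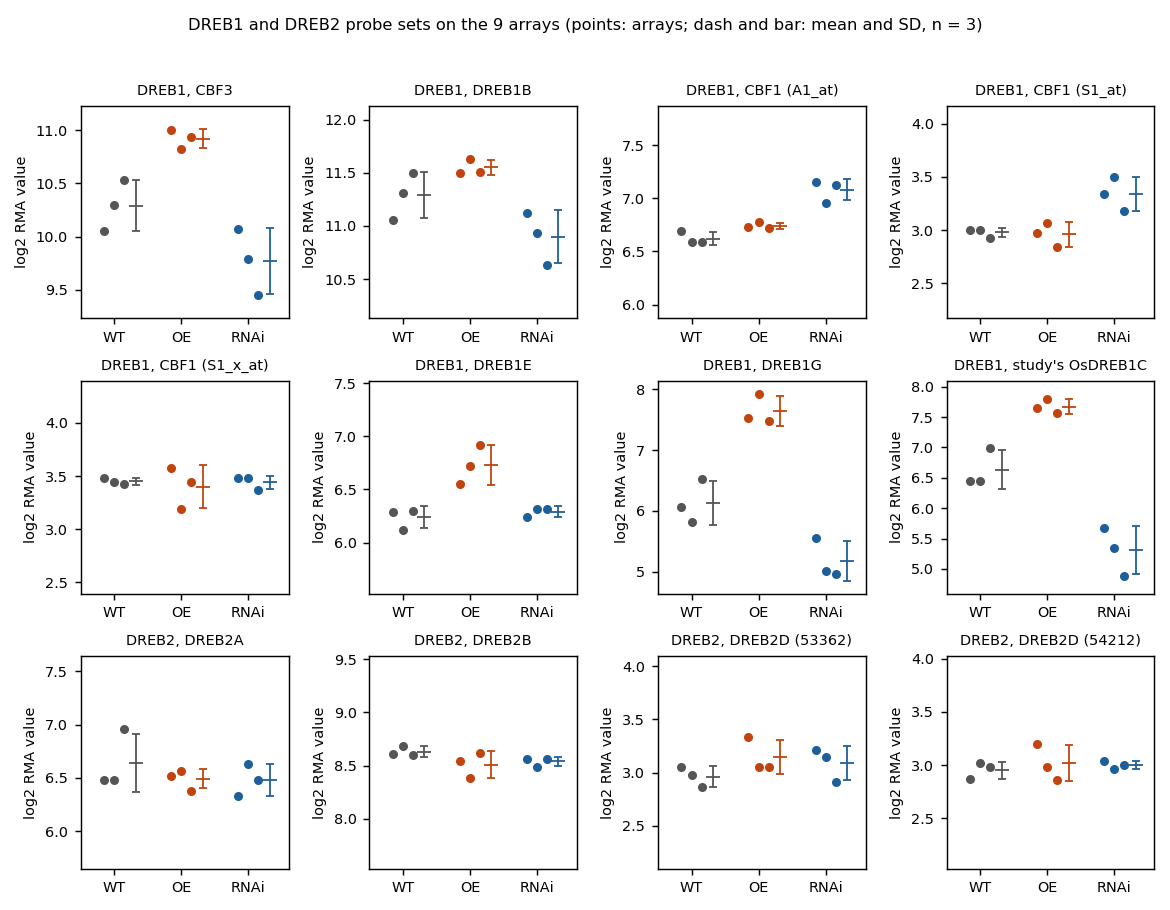
Log2 RMA values of the 12 probe sets on each of the 9 arrays, by group, each panel with its own axis. Points are arrays, and the dash and bar beside them give the mean and SD of 3 arrays. In the DREB1G panel all OE arrays lie between 7.48 and 7.93 and all RNAi arrays between 4.97 and 5.56, while the DREB2 panels show overlapping or nearly overlapping groups.

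DREB1G showed the largest difference between OE and RNAi of the 12 members. It read 6.06, 5.81 and 6.52 on the WT arrays, 7.53, 7.93 and 7.48 on the OE arrays and 5.56, 5.01 and 4.97 on the RNAi arrays. The OE arrays were thus all above, and the RNAi arrays all below, every WT array. DREB1G was 5.52-fold higher in OE than in RNAi (log2 difference 2.47, SE 0.21, 95% interval 2.00 to 2.93, adjusted p = 2.40e-04). This difference was the 7th highest of the 57194. It held in each of 9 analyses without a single array, where it ranged from 2.32 to 2.66. The excess of OE over WT (1.51, adjusted p = 0.00548) also held without any single array, with adjusted p up to 0.0272, but not with the unmoderated test (adjusted p = 0.0618). The distance between RNAi and WT was smaller. Its value was -0.95 (95% interval -1.42 to -0.48), and although the arrays did not overlap, it missed the threshold (adjusted p = 0.103). On 4 of the arrays DREB1G read below the array median.

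The probe set of the study's OsDREB1C followed nearly the same order. It read 6.45, 6.45 and 6.99 in WT, 7.65, 7.80 and 7.56 in OE, and 5.68, 5.35 and 4.89 in RNAi. Again all OE arrays were above and all RNAi arrays below the WT arrays. The difference between OE and RNAi was 2.36 (SE 0.20, 95% interval 1.91 to 2.81, adjusted p = 2.40e-04), or 5.15-fold, and it ranged from 2.15 to 2.55 without single arrays. This was the only member called against WT in both lines. It was 1.04 higher in OE. In RNAi it fell by 1.32 (adjusted p = 0.0220, SE 0.20), which is 2.50-fold and the 26th lowest of all differences between RNAi and WT. The fall ranged from -1.51 to -1.11 without single arrays and did not pass when WT replicate 2 or 3, RNAi replicate 2 or OE replicate 1 was omitted (adjusted p up to 0.0934). The rise did not pass when an OE array or WT replicate 1 or 2 was omitted (adjusted p up to 0.112).

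The probe sets annotated to CBF1 did not share this profile, although the gene table gives CBF1 the synonym DREB1C. On its A1_at probe set CBF1 read 6.69, 6.59 and 6.59 in WT, 6.73, 6.78 and 6.72 in OE, and 7.15, 6.96 and 7.12 in RNAi. Every RNAi array was above every WT and OE array. Relative to WT it rose by 0.45 in RNAi (SE 0.07, 95% interval 0.30 to 0.61, adjusted p = 0.0244), or 1.37-fold, and it was 0.34 lower in OE than in RNAi (adjusted p = 0.0227). Both differences kept their sign whichever array was omitted. The call against WT did not survive the omission of RNAi replicate 3, WT replicate 2 or 3 or OE replicate 1 (adjusted p up to 0.148). That between the lines did not survive the omission of replicate 1 or 3 of either line (adjusted p up to 0.0806).

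The other CBF1 probe sets lay below the lower quartile of all 9 arrays, at 2.84 to 3.58, where the RMA scale is compressed. The files used here hold no detection calls. The S1_at probe set read 3.00, 3.00 and 2.93 in WT, 2.97, 3.07 and 2.84 in OE, and 3.34, 3.50 and 3.18 in RNAi. It was thus also highest on the RNAi arrays, with a difference of -0.38 between OE and RNAi (adjusted p = 0.0400). This call stood in 2 of 9 analyses with 1 array omitted, those that omitted OE replicate 2 or RNAi replicate 3, and failed in the other 7 (adjusted p up to 0.120). The S1_x_at probe set, whose suffix marks probes that can also match other transcripts, differed by -0.05 to -0.01 and its groups overlapped. In the array's naming, A and S mark probe sets designed from antisense and sense source sequences, and probe sequences were not used here. Whether the CBF1 probe sets read the same transcript, or the one read by the probe set of the study's OsDREB1C, was not tested.

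CBF3 and DREB1B stand close to each other on chromosome 9, with only DREB1H between them in the gene table. In rice, DREB1A and DREB1B are the DREB1 genes best known for their rapid induction by cold. CBF3 read 10.05, 10.30 and 10.53 in WT, 11.00, 10.82 and 10.94 in OE, and 10.07, 9.79 and 9.45 in RNAi. All OE arrays exceeded all WT arrays, whereas RNAi replicate 1 lay within the WT range. CBF3 was 2.22-fold higher in OE than in RNAi (1.15, SE 0.16, 95% interval 0.79 to 1.50, adjusted p = 0.00320), and this held without each single array. Neither line was called against WT, with differences of 0.63 in OE (adjusted p = 0.0729) and -0.52 in RNAi (adjusted p = 0.223).

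DREB1B showed the same order with smaller steps. It read 11.06, 11.31 and 11.50 in WT, 11.50, 11.63 and 11.51 in OE, and 11.12, 10.93 and 10.63 in RNAi. The highest WT array and the lowest OE array were level at 2 decimals, and RNAi replicate 1 again lay within the WT range. DREB1B was 1.57-fold higher in OE than in RNAi (0.65, SE 0.14, adjusted p = 0.0229). Omitting any OE array, RNAi replicate 2 or RNAi replicate 3 ended the call, with adjusted p up to 0.0697. Against WT the differences were 0.26 in OE (adjusted p = 0.387) and -0.39 in RNAi (adjusted p = 0.283).

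DREB1E differed from these 4 in that its RNAi mean (6.29) was not below its WT mean (6.24). It read 6.29, 6.12 and 6.30 in WT, 6.55, 6.72 and 6.92 in OE, and 6.24, 6.32 and 6.32 in RNAi. The WT and RNAi arrays overlapped, and their difference was 0.06 (95% interval -0.16 to 0.27). DREB1E was 0.49 higher in OE than in WT (adjusted p = 0.0262) and 0.44 higher than in RNAi (SE 0.10, adjusted p = 0.0276). Omitting OE replicate 2 or 3 ended both calls. The first also ended when a WT array was omitted (adjusted p up to 0.116), and the second when an RNAi array was omitted (adjusted p up to 0.0748). At 1.41-fold, the rise against WT was the smallest of the 3 called.

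**Figure D2:**
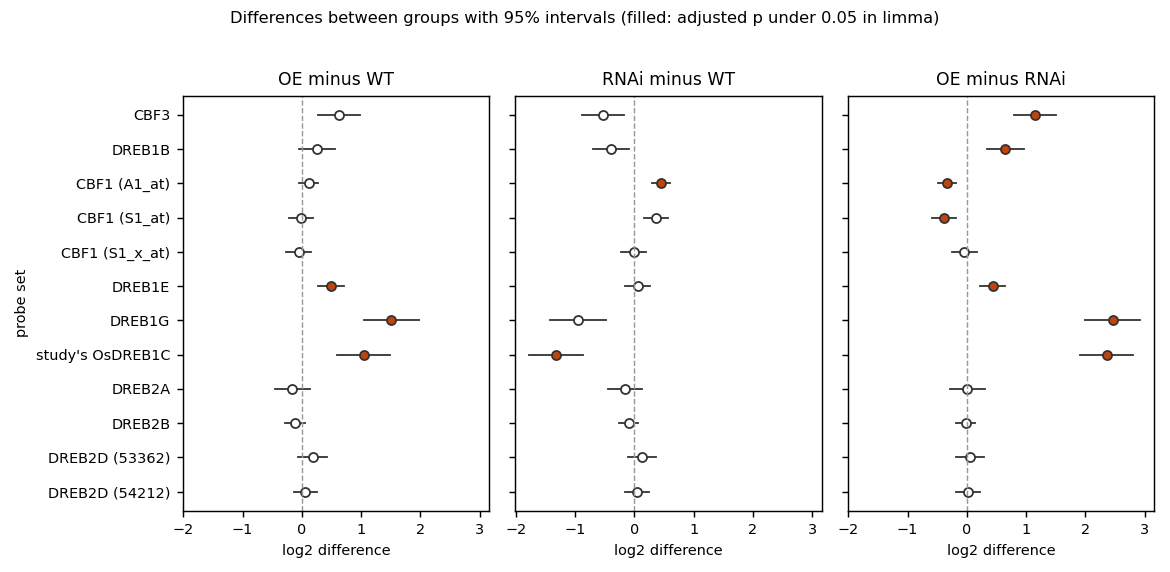
Log2 differences of the 12 probe sets in the 3 comparisons, with 95% intervals from limma. Filled points had an adjusted p under 0.05. Between OE and RNAi 7 points are filled, from -0.38 to 2.47, and the 4 DREB2 points in each panel lie near 0 and are open.

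Of the 8 DREB1 probe sets, 4 also varied together over the arrays within groups. CBF3, DREB1B, DREB1G and the study's OsDREB1C were compared after the group mean had been removed from each array. No rule set in advance chose these 4, which are the DREB1 probe sets whose means fall in the order OE, WT, RNAi. Over the 9 arrays the correlations of these deviations were 0.56 to 0.93 for the 6 pairs, lowest for CBF3 with DREB1G and highest for DREB1B with the study's OsDREB1C. These values are a description, and the deviations hold only 6 degrees of freedom. In WT replicate 3 was the highest array for each of the 4. In RNAi replicate 1 was the highest and replicate 3 the lowest for each of the 4. In OE they shared no order, with CBF3 highest on replicate 1 and the other 3 on replicate 2, and with the lowest value on replicate 2 for CBF3, replicate 1 for DREB1B and replicate 3 for the other two. The spread over WT arrays was 0.44 to 0.71 and that over RNAi arrays 0.49 to 0.80, while over OE arrays it was 0.13 to 0.45. DREB1E (-0.17 to 0.05 with the same 4) and CBF1 on its A1_at probe set (-0.26 to 0.35) did not vary with them in this way. The 4 probe sets share the same RNA pools and arrays, and the time of day at harvest was not stated for them.

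**Figure D3:**
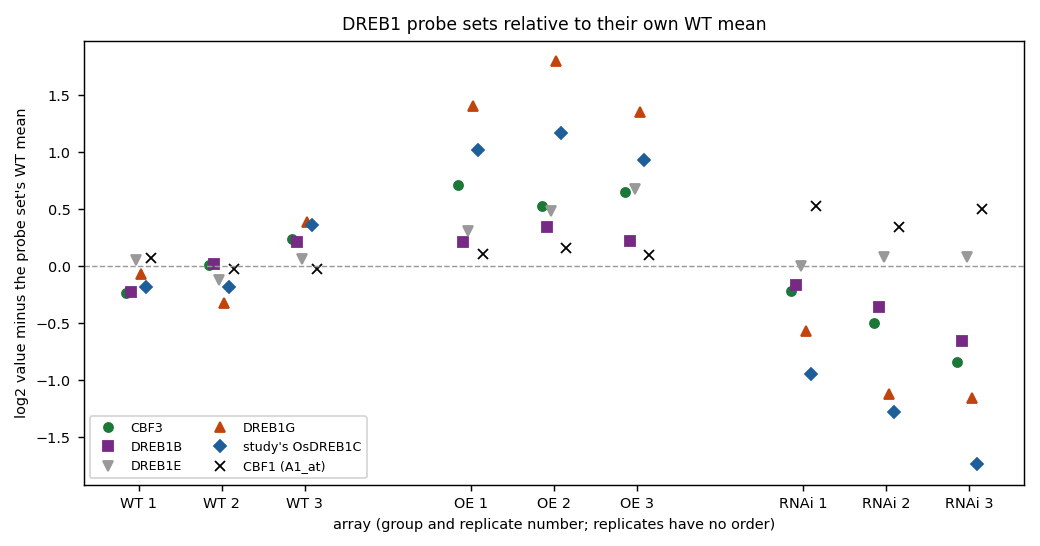
Log2 value of 6 DREB1 probe sets minus the WT mean of the same probe set, for each of the 9 arrays. The points of DREB1G, the study's OsDREB1C, CBF3 and DREB1B lie above 0 on all OE arrays and below 0 on all RNAi arrays, and within RNAi all 4 are lowest on replicate 3, while CBF1 lies above 0 on the RNAi arrays.

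DREB1 genes are known from Arabidopsis to be gated by the circadian clock, so genes of the clock were checked in the same arrays. The 9 probe sets of 6 clock genes (LHY, PRR1, PRR37, PRR73, PRR95 and GI) gave 0 calls in the 3 comparisons by limma. Over all probe sets 2.94% were called in OE against WT, 0.479% in RNAi against WT and 6.16% between the lines. For 9 probe sets a count of 0 is near these shares. At an unadjusted p under 0.05 there was 1 in OE against WT, 0 in RNAi against WT and 1 between OE and RNAi. Their differences ranged from -0.29 to 0.17, with 95% intervals between -0.56 and 0.31. Whether the time of day at harvest differed between the groups was not tested.

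The 4 DREB2 probe sets gave 0 calls in limma, and 0 at an unadjusted p under 0.05, in each of the 3 comparisons. For 4 probe sets 0 calls is near the share of all probe sets called, 0.479% to 6.16%. In Arabidopsis and rice, DREB2A is known for its induction by dehydration and heat, and DREB2B of rice is known to be regulated by splicing. DREB2A read 6.48, 6.48 and 6.96 in WT, 6.52, 6.56 and 6.38 in OE, and 6.33, 6.63 and 6.48 in RNAi. Its groups overlapped, and the differences were -0.16 in OE and -0.16 in RNAi against WT and 0.00 between the lines (95% interval -0.29 to 0.30). A further DREB2A probe set is assigned also to the next gene on chromosome 1, LOC4327135, and was therefore not counted. It differed by -0.06 to 0.01.

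DREB2B read 8.61, 8.68 and 8.60 in WT, 8.54, 8.38 and 8.62 in OE, and 8.56, 8.49 and 8.56 in RNAi. All RNAi arrays were slightly below the WT arrays, and the difference of -0.09 was not called (95% interval -0.26 to 0.07, adjusted p = 0.664). The 2 DREB2D probe sets read 2.86 to 3.33 and 2.86 to 3.20, below the lower quartile of every array. Their differences were 0.02 to 0.18 and were not called, and that of 0.18, in OE against WT, had a 95% interval of -0.06 to 0.42. Over the 4 DREB2 probe sets the median difference was -0.03 in OE against WT, -0.02 in RNAi against WT and 0.01 between the lines. For the 8 DREB1 probe sets the medians were 0.37, -0.20 and 0.54, beside 0.02, 0.00 and 0.00 for all probe sets tested.

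Groups that do not overlap were common on these arrays, at 23.3% of all probe sets in OE against WT, 16.3% in RNAi against WT and 23.2% between OE and RNAi. Among the 12 members 6 lay wholly higher in OE than in WT (11.3% of all probe sets) and 0 wholly lower. In RNAi against WT 2 lay wholly higher (8.31%) and 3 wholly lower (7.99%). Of the lines' arrays, those of 7 members did not overlap, 5 with OE higher (11.4%) and 2 with OE lower (11.8%), and these were the 7 called members.

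The genes next to the DREB1 genes were examined because neighbours could share a regional difference. Within 3 gene records on each side of the DREB1 genes, 15 probe sets of 12 other genes were tested. In OE against WT 1 was called higher and 1 lower, beside 2.94% of all probe sets called. In RNAi against WT 0 were called (0.479% of all), with 1 at an unadjusted p under 0.05. Between the lines 1 was called higher (3.14% of all). The one called higher in both was LOC4330307, the next record after DREB1G, named here after its values were seen. It was 0.64 higher in OE than in WT (adjusted p = 0.0457) and 0.90 higher than in RNAi (adjusted p = 0.00663). The first call was kept in only 2 of 9 analyses without a single array (adjusted p up to 0.168). The neighbour called lower, LOC4330309, lies 3 records after DREB1G and was also named after its values were seen. It differed by -0.48 in OE against WT (adjusted p = 0.0256) and by -0.30 between the lines (adjusted p = 0.0896). Its call was not rerun without single arrays. LOC9271844, between these 2 neighbours, differed by -0.08 and -0.05 in OE against WT on its 2 probe sets. The probe sets beside CBF3, DREB1B, CBF1 and DREB1E were not called. Beside the DREB2 genes 1 of 13 probe sets was called, higher in OE than in RNAi.

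Regulators and signalling kinases that act before DREB1 genes, or in the same stress pathways, were followed in 37 probe sets of 29 genes. This list and those below were chosen with earlier results of these data known, so their counts are not independent evidence. Of the 37, 8 probe sets of 6 genes were called between OE and RNAi, all higher in OE. Over all probe sets 6.16% were called and 3.14% were called higher. The median difference of the list was 0.13, beside 0.00 for all probe sets tested. At an unadjusted p under 0.05 there were 16 of the 37. Of the list, 13 probe sets lay wholly higher in OE than in RNAi (11.4% of all) and 2 wholly lower (11.8%). The R2R3-MYB factor MYB2, which raises stress tolerance when overexpressed in rice, was 0.80 higher (SE 0.14, adjusted p = 0.0102). The MAP kinase MAPK5 was 0.77 higher (SE 0.11, adjusted p = 0.00380). The calcium-dependent kinase CDPK13 was 0.55 and 0.53 higher on its probe sets (adjusted p = 0.00107 and 0.00261). SAPK2 and SAPK7, kinases of the SnRK2 family in abscisic acid and osmotic signalling, were 0.48 and 0.46 higher (adjusted p = 0.00419 and 0.0294). PHYA, the photoreceptor phytochrome A, was 0.38 and 0.42 higher on 2 probe sets (adjusted p = 0.0361 and 0.0262). Against WT there was 1 call in each line, CDPK13 at 0.30 in OE (adjusted p = 0.0351) and MAPK5, which fell by 0.64 in RNAi (adjusted p = 0.0401). Both were called in only 2 of 9 analyses without a single array (adjusted p up to 0.118 and 0.147). The SAPK7 call ended when RNAi replicate 2 or 3 or OE replicate 1 or 3 was omitted (adjusted p up to 0.101), and the 2 of PHYA were kept in 3 and 5 of 9 such analyses (adjusted p up to 0.109).

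Genes of the kind that DREB factors activate, such as dehydrins, late embryogenesis proteins, osmolyte enzymes and heat stress genes, were followed in 28 probe sets of 19 genes. There were 4 calls between OE and RNAi, all higher in OE, and 24 probe sets were not called, beside 6.16% of all probe sets called and 3.14% called higher. Their median difference was 0.15. OsTPP1, which encodes a trehalose-6-phosphate phosphatase, read 8.97, 9.14 and 9.27 in WT, 9.95, 10.03 and 10.03 in OE, and 8.39, 7.99 and 7.37 in RNAi. The 3 groups did not overlap, and TPP1 was 4.25-fold higher in OE than in RNAi (2.09, SE 0.21, adjusted p = 5.49e-04). It fell by 1.21 in RNAi against WT (adjusted p = 0.0390), a call that stood with RNAi replicate 1 or 3 omitted and failed with any of the other 7 arrays omitted (adjusted p up to 0.201). It differed by 0.87 in OE (adjusted p = 0.0557).

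The other called genes of this list were 2 of heat stress and a dehydrin. HSP16.9A, a small heat shock protein, was 1.33 higher in OE than in RNAi (adjusted p = 8.29e-04) and 1.26 higher than in WT (adjusted p = 0.00178). Both calls were kept without any single array, and the RNAi and WT arrays overlapped. HSFA3, a heat stress transcription factor that DREB2A activates in Arabidopsis, read 8.95 to 9.10 in WT, 9.59 to 9.74 in OE and 8.61 to 8.67 in RNAi. Its groups did not overlap, with a difference of 1.01 between the lines (SE 0.07, adjusted p = 6.01e-05) and of 0.64 between OE and WT (adjusted p = 0.00133), both kept without any single array. The dehydrin LIP9, a target-type gene of DREB1 factors in rice, was 0.71 higher in OE than in RNAi on 1 of its 3 probe sets (adjusted p = 0.0122) and differed by 0.19 and 0.24 on the other two. The late embryogenesis gene LEA3, named here after its values were seen, varied widely among replicates. It read 6.27 to 8.18 in WT, 5.15 to 7.42 in OE and 5.15 to 7.74 in RNAi, and its difference between the lines was 0.27 with a 95% interval of -1.43 to 1.98.

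**Figure D4:**
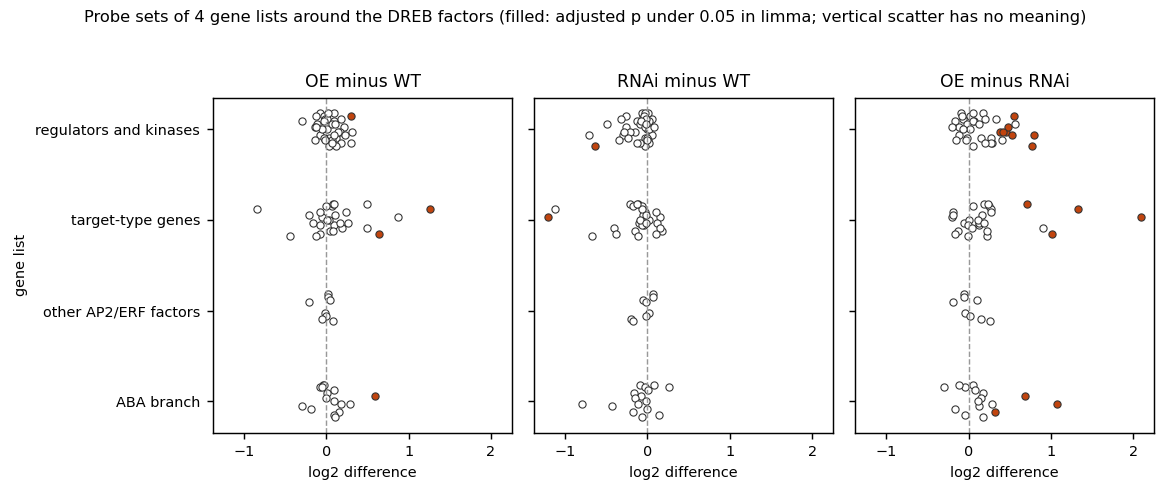
Log2 differences of the probe sets of 4 gene lists around the DREB factors in the 3 comparisons. Filled points had an adjusted p under 0.05. Between OE and RNAi the filled points lie between 0.32 and 2.09, all to the right of 0. The list of other AP2/ERF factors, of 8 probe sets, has none, beside 6.16% of all probe sets called.

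Drought factors and enzymes of the abscisic acid branch, which acts beside the DREB branch, were followed in 16 probe sets of 11 genes, and 3 were called between the lines, all higher in OE, beside 3.14% of all probe sets. ABA8OX1 and ABA8OX2, which encode enzymes that break down abscisic acid, were 1.07 (adjusted p = 0.00926) and 0.68 (adjusted p = 0.00425) higher in OE than in RNAi. ABA8OX2 was also 0.59 higher in OE than in WT (adjusted p = 0.0137), a call that ended when OE replicate 1, WT replicate 2 or WT replicate 3 was omitted (adjusted p up to 0.0674). NAC7, a factor of the NAC family, was 0.32 higher in OE than in RNAi (adjusted p = 0.0482) on a dim probe set at 3.69 to 4.17, a call kept in 1 of 9 analyses without a single array (adjusted p up to 0.152). The 8 probe sets of 5 other AP2/ERF factors gave 0 calls in limma in any comparison, with 1 at an unadjusted p under 0.05 between the lines. For 8 probe sets 0 calls is near the share of all probe sets called. That share was 2.94% in OE against WT, 0.479% in RNAi against WT and 6.16% between the lines. The genes of largest difference were SHAT1, an AP2 factor of seed shattering in rice, and the ERF factor EREBP1. SHAT1 differed by 0.26 between the lines on 1 probe set and by -0.19 on another, which differed by -0.21 in OE against WT. EREBP1 differed by -0.20 in RNAi against WT.

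The named genes whose profile over the 9 arrays was most like that of a member were sought among 2532 probe sets. For DREB1G they were CIGR1 (r = 0.99), a gibberellin-responsive gene of the GRAS family, BGLU3 (r = 0.98), a beta-glucosidase gene by its name, and BI-1 (r = 0.98), an inhibitor of cell death. CIGR1 was 0.95 higher in OE than in RNAi (adjusted p = 2.31e-04), BGLU3 0.83 (adjusted p = 5.89e-04) and BI-1 0.53 (adjusted p = 0.00294). For the study's OsDREB1C they were OsTPP1 (r = 0.99), SAPK2 (r = 0.99) and CDPK13 (r = 0.98), all 3 already on the lists above. These Pearson correlations rest on the same 9 arrays and mostly on the distances between the 3 groups, and they are given as a description.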

How the data were processed

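Leaf RNA of 9 samples (WT, OE and RNAi, 3 each) was measured on Affymetrix rice arrays, with the groups and the replicate numbers as the labels give them. The authors deposited 1 table of log2 values made with RMA (robust multi-array average), which corrects background, applies quantile normalization and summarises probes. The version of RMA was not given. RMA reduces a change shared by most transcripts and compresses low values. The number of arrays limits the precision.

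Of 57381 probe sets, 187 Affymetrix controls and reporters were removed. Group means were estimated over the 9 arrays together with limma 3.58.1 in R 4.3.3 (6 residual and 3.78 prior degrees of freedom), and OE, RNAi and WT were compared in pairs, two-sided, with Benjamini-Hochberg adjustment over 57194 probe sets. All adjusted p-values come from limma. P-values measure the spread between seedling pools. The script was tested on simulated data.

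Names came from the platform annotation (1 gene for 22436, several for 95, none listed for 34663), with symbols from a gene table of assembly ASM3414082v1. No coordinates are given because the builds could not be matched. Of 311 list symbols, 181 matched no gene, 9 matched several and 9 named another gene, which left 127 probe sets of 83 genes. Members and lists were chosen with earlier results of these data known. Named were all 12 members, OsHMGB707, up to 6 called genes of each list (the 2 of largest difference where none was called), and the 3 named genes most correlated with DREB1G and with the study's OsDREB1C, among probe sets whose mean reached the median. RBCS, RCA, CAB2R and RBCS1 formed the leaf list. The study's own comparison states a fold threshold of 2 and no test. Alternatives were a filter on dim probe sets, other normalizations, a fit on 2 groups only, the replicate number as a block, no or another variance moderation, control probe sets kept, and each array left out.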

Additional observations from a re-analysis of the deposited data

Results flagged for a closer look

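DREB1G and the probe set of the study's OsDREB1C drew attention because every OE array lay above and every RNAi array below all WT arrays. The difference of RNAi from WT passed the threshold for the study's OsDREB1C (-1.32, adjusted p = 0.0220) and not for DREB1G (-0.95, adjusted p = 0.103). The difference between OE and RNAi was 2.47 for DREB1G and 2.36 for the study's OsDREB1C on the log2 scale (limma adjusted p = 2.40e-04 for each), shown by 3 of 3 arrays in each line. The contribution of OsHMGB707, of the vectors and of growth or harvest was not tested. On the arrays with the label OE the first OsHMGB707 probe set did not read above WT. Whether it reads the transcript of the OE construct, or is near saturation, was not tested.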

How the results depend on the processing

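The count of called members in OE against WT (3) became 0 with the unmoderated test, and 1 to 4 when each array was left out. In RNAi against WT (2) it became 0 on only the 2 groups compared, 0 with the replicate block, 0 with the unmoderated test, and 0 to 3 without single arrays. Between OE and RNAi (7) it became 4 on only the 2 groups compared, 4 with the unmoderated test, and 3 to 6 without single arrays. The cause was not tested. Over all probe sets the calls in OE against WT (1680) were 937 with the replicate block, 731 with the unmoderated test and 527 to 1939 without single arrays. In RNAi against WT (274) they were 167 on only 2 groups, 69 with the unmoderated test and 118 to 512 without single arrays. Between the lines (3521) they were 1805 on only 2 groups, 1623 with the unmoderated test and 1693 to 4141 without single arrays. With the replicate block 2 members were called in OE against WT and 5 between the lines. The numbers share no stated batch. Deviations of same-numbered arrays correlated at -0.33 to 0.12, and 0 of 9 arrays correlated best with its own number.

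Between the lines the regulator list (8 calls) had 5 to 9 and the target-type list (4) 3 to 5 over all settings, and the abscisic acid list (3) had 1 to 4. Target-type calls in OE against WT (2) were 2 to 4, and counts of 0 or 1 in the other cases were 0 to 2. These list counts, and the values of OsHMGB707, the most correlated genes and LOC4330307, were rerun after the data were seen.

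Signs changed 22 times, all for differences near 0 that were never called. All but 1 came from leaving out an array, which gave -0.07 to 0.05 for CBF1 on its S1_at probe set in OE against WT. For its S1_x_at probe set they gave -0.14 to 0.06 in OE against WT, -0.03 to 0.03 in RNAi against WT and -0.13 to 0.07 between the lines. DREB1E gave 0.00 to 0.09 in RNAi against WT. DREB2A gave -0.24 to 0.00 in OE against WT and -0.07 to 0.08 between the lines, where centring each array on its median gave 0.00. DREB2B gave -0.08 to 0.05 between the lines. DREB2D gave -0.04 to 0.12 and -0.08 to 0.09 between the lines, and on the second of its probe sets -0.03 to 0.14 in OE against WT and 0.00 to 0.07 in RNAi against WT. EREBP1 gave -0.24 to 0.06 and MYB2 -0.06 to 0.22 in OE against WT, and HSP16.9A -0.19 to 0.07 in RNAi against WT.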
